A study of Mus musculus with 2 samples.

Results

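LRPPRC PAR-CLIP sites that fell in 3 satellite-repeat gene models of the mouse nuclear genome, Gm10800, Gm21738 and Gm26870, are described here. A site was taken as a member where it shared at least 1 nt with the mm10 GENCODE vM21 gene body of one of them, on either strand. This rule found 32 of the 552 deposited sites (5.80%, 95% Wilson interval 4.14 to 8.07%), and 6.35% of the 504 nuclear sites. The gene models were selected on the positions of called sites, so the number of sites in them is a description and was not tested. The 3 gene bodies held 41861 of 2652783500 bases of the mm10 sequences searched (0.00158%). This is a share of the assembly, which lacks most of the mouse major satellite, and not of the satellite sequence in the cells.

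The sites came from mouse embryonic fibroblasts (MEFs) of Lrpprc–FLAG transgenic mice. The labels give doxycycline at 2 μg/ml for 72 h for both samples of the series. The study's methods name this treatment as the way LRPPRC with a FLAG tag was induced, after describing both the MEFs and HeLa Tet-On cells. They describe no inducible construct for the MEFs. The labels do not say whether the control made the tagged protein. In PAR-CLIP, living cells take up 4-thiouridine, which crosslinks to a bound protein under ultraviolet light and is then read as C, so a called region must hold a U on the strand of the RNA. There was 1 experimental sample and 1 control sample, the labels do not say what set the control apart, and it was not analysed here. With 1 library no difference could be tested against replicate error, the list gave no read depth for any site, and the intervals below cover counting error over sites only.

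LRPPRC is a leucine-rich pentatricopeptide repeat protein that acts chiefly in mitochondria, where it keeps mRNAs stable with its partner SLIRP. Satellite DNA is a long tandem array of one short unit; in the mouse, the major satellite fills the pericentromeric heterochromatin of the chromosomes, and most of it is missing from the genome assembly. Its transcripts can come from both strands, and the strands differ strongly in base composition, one being rich in U and the other in A. The Gm names are automatic labels for predicted genes, and the sources used here give no function for them.

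All 3 gene models were made of one tandem repeat. Within the 3 gene bodies together, identical 10-nt words were most often 234 nt apart (11561 pairs), followed by 468 nt (7001 pairs), which is the next multiple. This period is that of the mouse major satellite. Taken alone, Gm26870 had the same period, Gm10800 had 485 nt followed by 234 nt, and Gm21738 had 351 nt followed by 233 nt. One unit of 234 nt from Gm26870, mm10 chr9:3014066-3014299 on the plus strand, is shown as the ruler for all positions below, and its capitals mark positions 38 to 119, which at least 13 of the 21 sites on this strand covered.
Repeat unit: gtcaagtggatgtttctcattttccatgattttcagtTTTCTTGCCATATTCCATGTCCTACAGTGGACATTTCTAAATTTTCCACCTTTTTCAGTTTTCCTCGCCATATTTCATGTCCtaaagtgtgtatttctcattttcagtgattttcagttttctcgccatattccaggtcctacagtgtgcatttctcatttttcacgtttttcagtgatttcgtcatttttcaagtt
Of its bases, 46.2% were U when read in this direction. This direction is called the U-rich strand of the repeat and its complement the A-rich strand. The U-rich strand is the minus strand in Gm10800 and Gm21738, and the plus strand in Gm26870.

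Every member site was a copy of this unit. The members matched it with 94.7 to 100% identity (median 96.7%), and read in the other direction with 44.7 to 50.7%. The 452 other nuclear sites on chromosomes that had no match to a member reached 44.1 to 73.3% (median 54.7%). The highest of these belonged to a site of 15 nt. The choice of sites without a match largely fixes this gap, and over all 460 other nuclear sites the highest identity was 98.2%. The widest sites of Gm21738 and Gm26870 on each strand, and the widest minus-strand site of Gm10800, show the repeat in the sites themselves. They are given 5′ to 3′ on their own strand from the mm10 reference, so they are genome letters and not reads. Capitals mark a 10-nt word found in most sites of that strand: ttcagttttc in U-rich sites and aaaactgaaa in A-rich sites. Of the Gm10800 site at chr2:98666592-98666924, the 300 nt at its 5′ end, chr2:98666625-98666924, are shown.
Gm10800, U-rich, chr2:98666625-98666924, minus: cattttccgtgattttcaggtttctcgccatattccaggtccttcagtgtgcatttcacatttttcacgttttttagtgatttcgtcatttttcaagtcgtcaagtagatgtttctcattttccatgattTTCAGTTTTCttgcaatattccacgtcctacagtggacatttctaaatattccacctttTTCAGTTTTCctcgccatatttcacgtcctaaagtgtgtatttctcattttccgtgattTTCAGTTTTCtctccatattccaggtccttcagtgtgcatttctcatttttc
Gm21738, U-rich, chr14:19417208-19417319, minus: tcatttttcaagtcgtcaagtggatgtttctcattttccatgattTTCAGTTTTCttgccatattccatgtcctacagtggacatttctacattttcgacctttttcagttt
Gm26870, U-rich, chr9:3002048-3002231, plus: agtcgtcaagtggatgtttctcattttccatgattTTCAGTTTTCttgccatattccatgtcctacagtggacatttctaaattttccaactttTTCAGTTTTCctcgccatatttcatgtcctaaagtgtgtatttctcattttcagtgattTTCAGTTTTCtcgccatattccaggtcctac
Gm21738, A-rich, chr14:19415819-19415958, plus: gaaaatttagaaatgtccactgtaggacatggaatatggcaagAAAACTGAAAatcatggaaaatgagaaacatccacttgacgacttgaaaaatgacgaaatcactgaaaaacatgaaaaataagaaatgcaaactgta
Gm26870, A-rich, chr9:3000522-3000646, minus: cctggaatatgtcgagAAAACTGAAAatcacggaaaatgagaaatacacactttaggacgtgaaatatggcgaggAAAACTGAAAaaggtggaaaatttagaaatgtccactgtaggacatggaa
The 10-nt word of the U-rich strand was in 19 of 21 U-rich sites (90.5%, interval 71.1 to 97.3%) and in 0 of 11 A-rich sites. The word of the A-rich strand was in 11 of 11 A-rich sites and in 0 of 21 U-rich sites. Neither word was in any of the 452 nuclear sites read on their own strand that had no match to a member, which their choice largely fixes. Both words are a feature of the repeat as much as of the sites, since each occurs 3 times in the 234-nt unit, and the gene bodies held 323 and 337 copies of them. The words were chosen because they were the most shared, so their counts are a description.

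The 3 gene models differ in size and in how they are annotated. Gm10800 (ENSMUSG00000075014.1) is annotated as protein-coding on the minus strand of chr2:98666547-98667301, 755 nt, of which 87.4% is exon. Gm21738 (ENSMUSG00000095280.1) is annotated as protein-coding on the minus strand of chr14:19415857-19418930, 3074 nt, of which 22.2% is exon. Gm26870 (ENSMUSG00000097312.1) is annotated as a lincRNA, a long intergenic non-coding RNA, on the minus strand of chr9:3000282-3038313, 38032 nt, of which 7.08% is exon in its 3 transcripts. Sequence in lower case in the reference, which marks repeats (soft-masked), made up 99.2% of the Gm10800 body, 83.7% of Gm21738 and 96.3% of Gm26870. Masking marks repeats of any class, and the class was not looked up, because no repeat table was used here. The name satellite rests here on the tandem period and on the identity of the sites to the unit.

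Gm10800 was nearly filled with sites. It held 5 sites, or 6.62 per kb, with 3 called on the plus and 2 on the minus strand. Together they covered 90.3% of the gene body on one strand or the other (682 of 755 nt), with 77.1% of the plus strand and 58.7% of the minus strand covered. Their width ranged from 112 to 333 nt, the median being 180 nt, and they included the widest of all members, chr2:98666592-98666924 on the minus strand with 333 nt and chr2:98666692-98667014 on the plus strand with 323 nt. Exons make up 87.4% of this body, and all 5 sites shared bases with them, by 86 to 280 nt.

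Gm21738 held 7 sites, or 2.28 per kb, which covered 19.2% of its body. The plus strand had 2 of them and the minus strand 5, and their width was 75 to 140 nt (median 108 nt). Exons make up 22.2% of the body, and 4 of the 7 sites shared bases with one. Of these 4, chr14:19416886-19416960 and chr14:19417208-19417319, both on the minus strand of the gene itself, lay wholly in exons. The others, chr14:19415810-19415917 and chr14:19415819-19415958, lay over each other on opposite strands. The widest gap between neighbouring sites was 927 nt, and the last 632 nt of the body had no site.

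Gm26870 held 20 sites, the most of the 3, but in a body so long that this was 0.526 per kb. They covered 5.51% of the body, with 4.26% of the plus strand and 1.43% of the minus strand. The plus strand had 14 and the minus strand 6, and their width was 60 to 184 nt (median 101 nt). With the body cut into 4 equal stretches from its low end, 5, 7, 5 and 3 sites were found, and its last 6982 nt held none. The last of the 4 stretches was 95.8% masked and the first 96.7%. Exons make up 7.08% of the body, and 2 of the 20 sites shared bases with one, namely chr9:3000522-3000646 on the minus strand and chr9:3024392-3024493 on the plus strand.

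**Figure D1:**
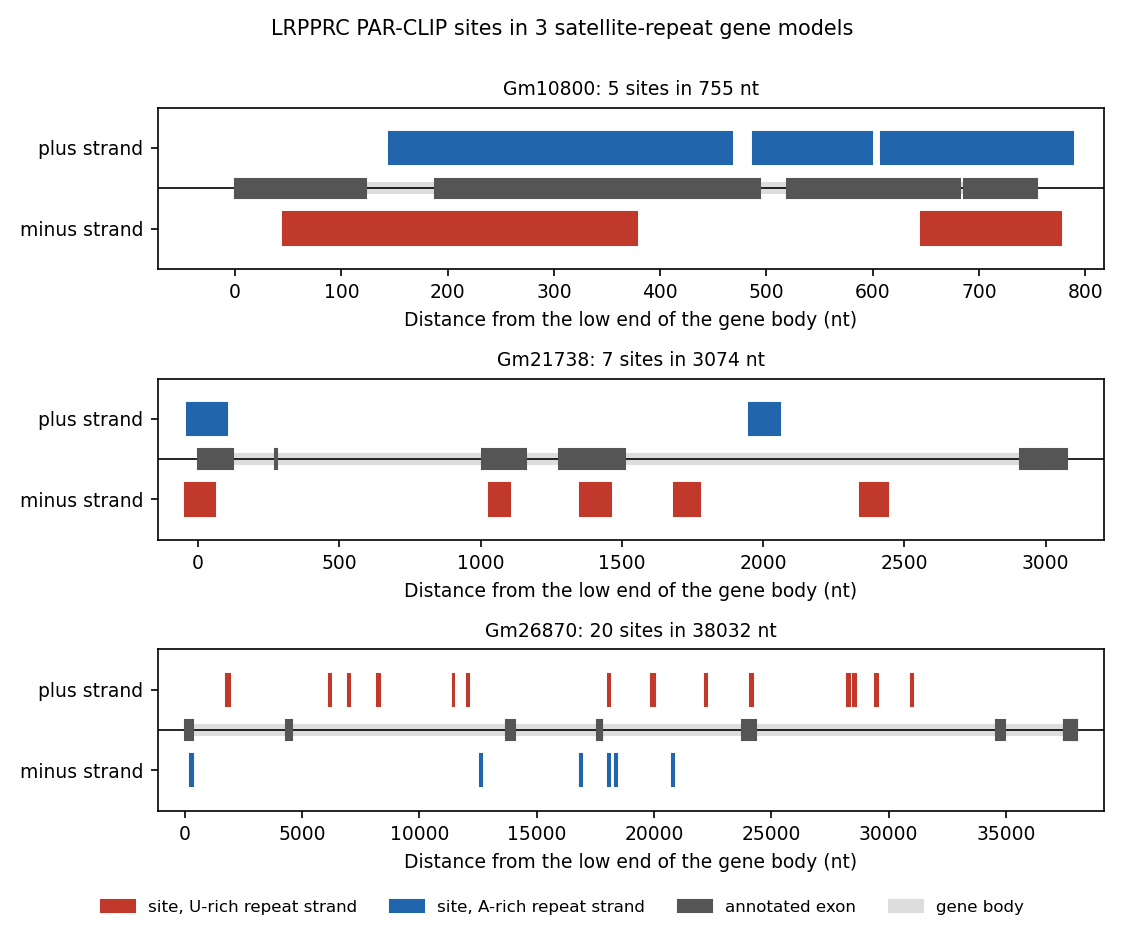
Sites along each gene body, as distance in nt from its end with the lowest coordinate. Bars above the line are plus-strand sites and bars below it minus-strand sites, red for the U-rich and blue for the A-rich repeat strand; Gm10800 is nearly covered (90.3%), while the 20 sites of Gm26870 cover 5.51%.

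Gm26870 also encloses 9 gene models on the plus strand that are annotated as protein-coding (Gm10722, Gm11168, Gm10721, Gm10720, Gm10719, Gm10718, Gm10717, Gm17535 and Gm10715). These models fill 63.5% of the body (24149 of 38032 nt), and 13 of the 20 sites (65%) lay in one of them, a share near that of their extent. Of the 9, 6 had at least 1 site. Gm10719 had 5 and Gm10717 had 4, and these were the longest of the 9, at 4186 and 7873 nt. The models without a site were 1205 to 1440 nt long. Of the 14 plus-strand sites, 9 lay in a plus-strand nested gene and 6 of these shared bases with its exons, by 25 to 160 nt. The exon share of the nested models is not given here, so the count of 6 has no background beside it. A plus-strand site in a nested gene can be set against a coding model on its own strand or against the lincRNA on the other.

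More sites lay on the U-rich strand of the repeat than on the strand of the annotation, a difference that comes from Gm26870 alone. In Gm10800 and Gm21738 the U-rich strand is the strand of the annotation, and in Gm26870 it is the opposite strand. Across the 3 gene models 13 of 32 sites were on the strand of the gene model (40.6%, 25.5 to 57.7%), and 21 of 32 were on the U-rich strand of the repeat (65.6%, 48.3 to 79.6%). By gene, the U-rich strand had 2 of 5 sites in Gm10800, 5 of 7 in Gm21738 and 14 of 20 in Gm26870. The share in Gm26870 is that of the strand opposite to its annotation, and the interval of the overall share holds 50%. On the plus strand of the genome were 19 of 32 members (59.4%, 42.3 to 74.5%), beside 234 of the 460 other nuclear sites on chromosomes (50.9%).

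Base composition set the strands apart. The U-rich sites held 40 to 48.3% U with a median of 45.0% (21 sites), and the A-rich sites held 17.0 to 21.8% U with a median of 19.3% (11 sites). The ranges did not overlap, which the repeat itself fixes: the gene bodies held 46.8% U on the U-rich strand and 18.4% on the other. The other nuclear sites ranged from 6.06 to 64.0% U with a median of 26.03%. A U share above 40% was found in 20 of 32 members, all on the U-rich strand, where the background was 13.6% of the 492 nuclear sites on chromosomes. Summed over all members, U made up 35.9%, A 28.1%, C 19.8% and G 16.3% of the bases.

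Since only a U can be crosslinked, the strands were also compared per U. Per 1000 bases of gene body there were 0.502 sites on the U-rich strand and 0.263 on the A-rich strand. Per 1000 U there were 1.07 and 1.43 sites, so the order turned with the denominator. The U-rich sites covered 1128 of 19571 U of their strand (5.76%) and the A-rich sites 253 of 7704 (3.28%). The list does not say which U of a site was crosslinked.

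**Figure D2:**
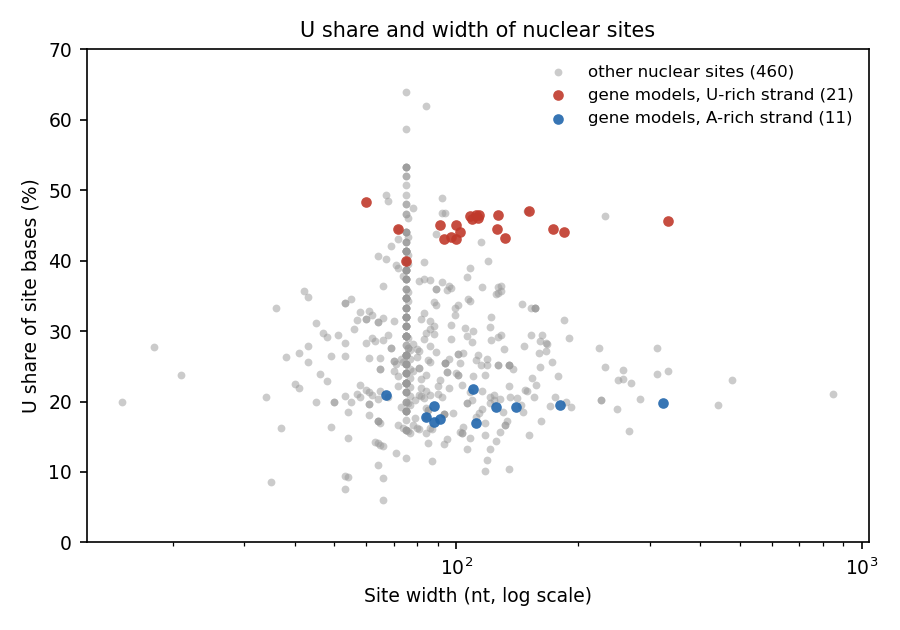
U share of each nuclear site in percent of its bases (vertical) against its width in nt on a log scale (horizontal). Red points are the 21 member sites on the U-rich strand, at 40 to 48.3% U, blue points the 11 on the A-rich strand, at 17.0 to 21.8% U, and grey points the 460 other nuclear sites.

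The members were wider than the usual nuclear site. Their widths ran from 60 to 333 nt with a median of 109.5 nt (interval 93 to 126 nt, from the ranks of the widths), while the other nuclear sites had 15 to 849 nt and a median of 75 nt (75 to 77 nt). The mitochondrial sites had a median of 147.5 nt and ran from 58 to 688 nt. Width in U-rich sites (median 109 nt) and in A-rich sites (median 110 nt) was close.

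All 32 members were at least 90% soft-masked, the lowest at 91.2%, and 21 were masked over their whole width. At a 50% limit the background was 33.7% of the 492 nuclear sites on chromosomes, and 134 of the 460 other nuclear sites passed it (29.1%). Over all bases, 98.5% of 3980 member bases were masked against 27.9% in the other nuclear sites. The rule took gene bodies that were themselves 83.7 to 99.2% masked, so this share describes the place as much as the sites.

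In 4 places a site on one strand lay over a site on the other. The pairs shared 233 nt and 132 nt in Gm10800, 99 nt at the low end of Gm21738 and 67 nt in Gm26870 (chr9:3018313-3018409, plus, and chr9:3018318-3018384, minus). These pairs took in 8 of 32 members (25.0%, 13.3 to 42.1%), where the background was 11.4% of the 492 nuclear sites and the other nuclear sites had 48 of 460 (10.4%). In Gm10800, 4 of the 5 sites were in such pairs, so the share rests largely on a gene body of 755 nt that the sites nearly filled.

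Most pairs of sites were alike in sequence, within and between chromosomes. The rule took sites from gene bodies made of one repeat, which largely fixes this likeness. Pairs of other stretches of the gene bodies were not compared, so the counts below have no background and describe the repeat as much as the sites. Of the 496 pairs of members, 443 (89.3%) matched at 80% identity or more over at least 50% of the shorter site, with a median identity of 95%. With 90% identity required, 313 of the 496 pairs passed. Every one of the 32 sites was in at least 1 such pair. Between different gene models 246 of 275 pairs passed (89.5%). Pairs on the same repeat strand passed in 243 of 265 cases (91.7%), all of them in the same sense. Pairs on opposite repeat strands passed in 200 of 231 (86.6%), as reverse complements. These include the 4 pairs above that lie over each other, whose shared bases match by position. Among same-sense pairs the highest identity was 100% over 120 nt, between 2 separate plus-strand sites of Gm26870. They are printed to show how alike separate sites can be, with the same capitals as before.
Gm26870, U-rich, chr9:3028503-3028628, plus: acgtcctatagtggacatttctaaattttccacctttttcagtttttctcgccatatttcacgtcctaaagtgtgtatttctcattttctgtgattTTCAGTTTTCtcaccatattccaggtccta
Gm26870, U-rich, chr9:3029681-3029831, plus: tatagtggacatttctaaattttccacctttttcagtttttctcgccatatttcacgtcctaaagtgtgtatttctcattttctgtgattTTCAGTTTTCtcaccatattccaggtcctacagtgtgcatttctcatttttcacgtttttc
Among opposite-sense pairs, the A-rich site of Gm21738 and the widest U-rich site of Gm26870 shown earlier were reverse complements with 100% identity over 87 nt, on different chromosomes.

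**Figure D3:**
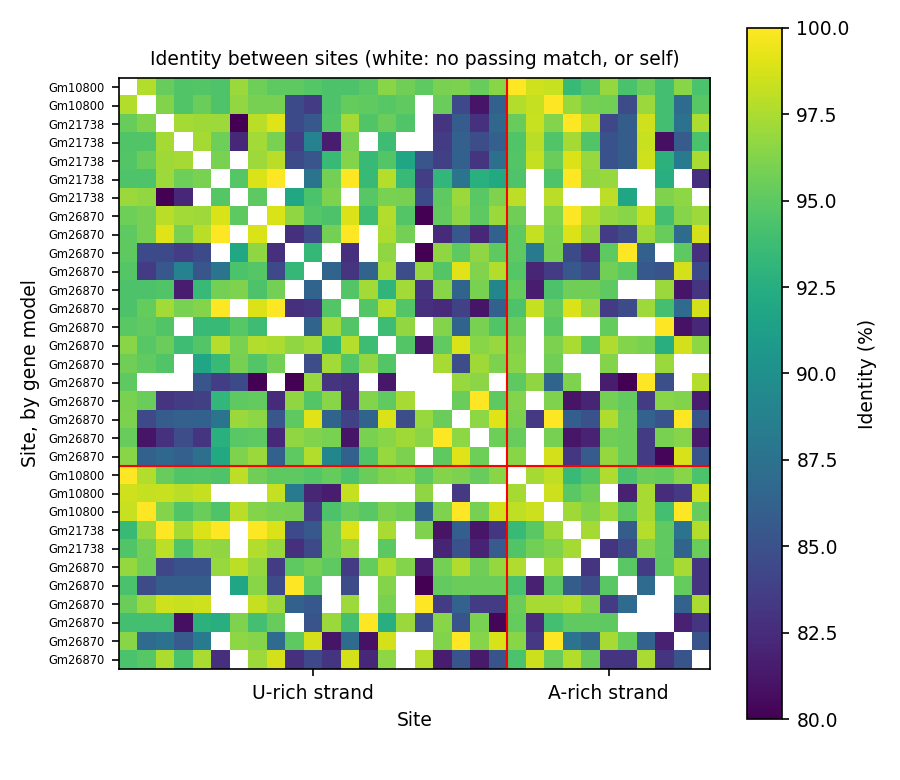
Identity in percent between each pair of the 32 sites over the aligned stretch, with sites ordered by repeat strand and then by gene model. White cells are pairs without a passing match, or a site with itself; 443 of 496 pairs passed, and the cells across the red lines, which part the strands, are matches as reverse complements.

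Laid on 1 unit, the sites were not spread evenly. On the U-rich strand the number of sites over a position ran from 3 of 21 at position 219 to 16 of 21 at 16 positions, the first of them position 60, with a median of 10. On the A-rich strand it ran from 3 to 8 of 11 with a median of 6, and the stretch with 7 or more ran from position 212 through the end of the unit to position 64. Both strands together had 23 of 32 sites at most, from position 60, and 8 at least, from position 193. With the unit cut into 3 equal stretches of 78 nt, the mean number of U-rich sites over a position was 12.2, 12.6 and 6.82, and that of A-rich sites was 6.92, 5.04 and 4.92. The U share of the unit on the U-rich strand was 42.3%, 50% and 46.2% in the 3 stretches, and the 14-nt words of the unit had a median of 105, 76 and 122 exact copies in the gene bodies. The part of either in the profile was not tested. Adjoining positions share the same sites, and the members share their source, so no test was made of this profile.

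**Figure D4:**
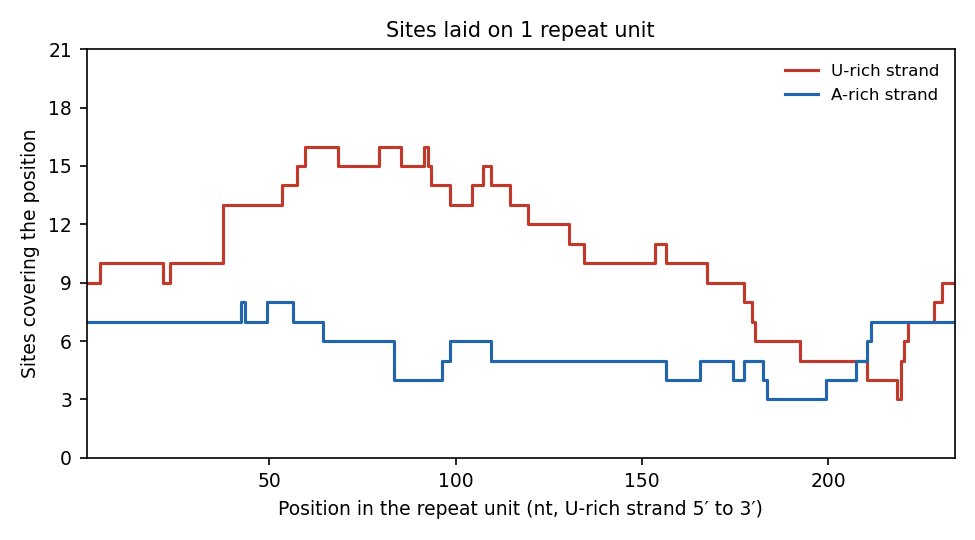
Number of member sites covering each position of the 234-nt unit, read 5′ to 3′ on the U-rich strand, for the 21 U-rich sites (red) and the 11 A-rich sites (blue). The U-rich line is highest, at 16, from position 60 and lowest, at 3, at position 219; the A-rich line stays between 3 and 8.

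The gene bodies were also set against the unit. Cut into windows of 109 nt, the gene body of Gm10800 had a median identity to the unit of 95.9% (6 windows), that of Gm21738 93.6% (28 windows) and that of Gm26870 95.4% (348 windows). Windows of at least 90% identity made up 83.3%, 82.1% and 93.1% of them, while all 32 sites were above that limit. The sites had medians of 96.1% in Gm10800, 97.1% in Gm21738 and 96.7% in Gm26870, and in Gm21738 the lowest site, at 94.7%, was above the median of the windows. In Gm26870, 324 windows reached 90% identity and 20 sites were called.

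How far a read could tell these copies apart depended on its length, and was judged here by exact matches only. The alignment allowed mismatches and a crosslinked U is read as C, so a read could fit more places than are counted. Words of 30 nt taken from the members had a median of 35 exact copies in mm10, from 1 to 223, and 13.04% were found once. Words of 20 nt had a median of 120 copies, and words of 14 nt a median of 245. In the other nuclear sites the medians were 1, 3 and 34 copies, and 51.6% of their 30-nt words were found once. More than 100 copies were found for 24.6% of the 30-nt words of members and for 80.5% of their 14-nt words. This number is the -M setting of the alignment, and the study's methods do not say that reads beyond it were dropped. The gene models differed here. Each of the 5 sites in Gm10800 and the 7 in Gm21738 had at least 1 30-nt word found once in mm10, but only 2 of the 20 in Gm26870 did, and single-copy words were 25.2%, 28.5% and 0.631% of their 30-nt words. For 18 of the 32 sites, all in Gm26870, no 30-nt word pointed to a single place in the assembly. The 2 sites of Gm26870 with a single-copy word, chr9:3018313-3018409 and chr9:3018318-3018384, lie over each other. Words longer than 30 nt were not counted, so these values do not cover longer reads.

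**Figure D5:**
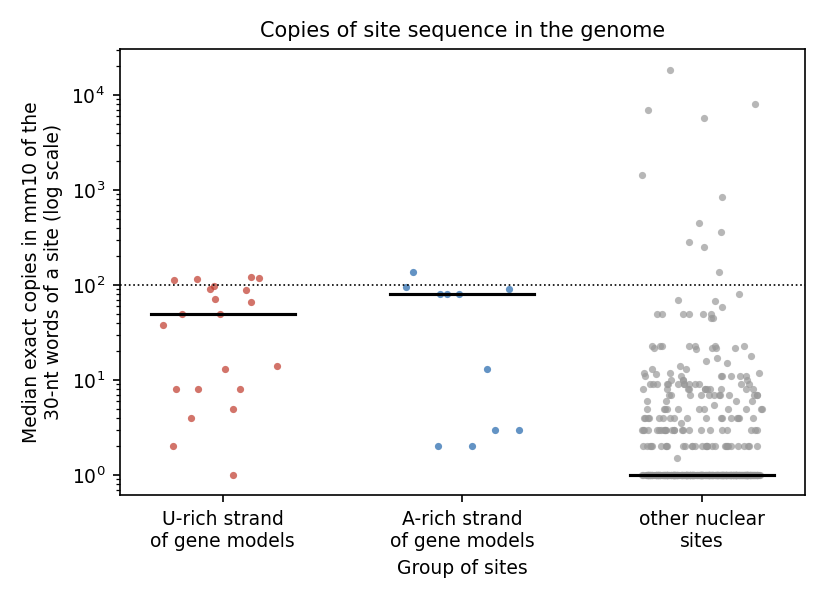
Exact copies in mm10, both strands, of the 30-nt words of each site, as the median per site on a log scale; each point is a site, black bars are medians over sites, and the dotted line is at 100 copies. Member sites lie between 1 and 137 copies, and the other nuclear sites have a median of 1.

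The same repeat also gave sites elsewhere. Outside the gene bodies, 8 nuclear sites matched a member at 80% identity or more over at least 50% of the site, and their identity to the unit was 93.5 to 98.2%. Of these, 3 lay in Gm10801 on chr2, a protein-coding model on the plus strand (chr2:98662256-98662488, chr2:98662828-98662911 and chr2:98663816-98663909), and 3 lay in the body of the lincRNA Gm33838 on chr9 (chr9:35305226-35305306, chr9:35305344-35305592 and chr9:35305371-35305462). The other two were in no gene: chr9:3000024-3000127, 155 nt before the low end of Gm26870, and chr12:3109873-3109981, which matched the A-rich site of Gm26870 shown above at 100% over 105 nt. On the U-rich strand were 3 of the 8 and on the A-rich strand 5. With them, 40 of the 492 nuclear sites on chromosomes were copies of the repeat (8.13%, 6.03 to 10.9%); the 12 on unplaced scaffolds were not compared. Each of the 10-nt words shared by the members was in 6 of these 8 sites, on one strand or the other.

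At the edge of the rule, 28 of the 32 members lay wholly inside a gene body and 4 partly. The member with the smallest share inside was chr14:19415810-19415917 on the minus strand, with 61 of 108 nt (56.5%), followed by chr14:19415819-19415958 with 72.9% and chr2:98667155-98667334 with 81.7%. Just outside were chr9:3000024-3000127, named above, and chr2:98665050-98665140, 1407 nt from Gm10800, which was 20.9% masked and had 63.7% identity to the unit.

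The members shared no word of 14 nt, the length of the shortest reads kept, with the mitochondrial genome. Of 3564 words of 14 nt in the members, 0 were in the mouse mitochondrial genome on either strand. In the other nuclear sites, 62 of 38198 were (0.162%). The words overlap, and those of the members come from like copies of the same repeat. The words are therefore not separate observations, and no difference between the shares was tested. Only exact matches were counted, while the alignment allowed mismatches and a crosslinked U is read as C. Whether reads of the member sites came from mitochondrial RNA was not tested.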

How the data were processed

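PAR-CLIP of LRPPRC-FLAG was carried out in MEFs, and the sites of 1 experimental sample were analysed. According to the study's methods, the authors removed PCR duplicates by random bases and trimmed reads with cutadapt (1.10) to at least 14 nt. They aligned the reads with Bowtie (1.12 in the submitters' processing notes), allowing mismatches, to mm10 masked for nuclear copies of mitochondrial DNA. The settings reported 1 place per read, with the -M option at 100 places. Crosslinked regions were called with BMix. A read from a repeat is thus placed at 1 of several equal copies, and a call needs a U. The deposited score column was 0 in every line, so the depth per site was unknown, and only positions and strands were used.

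Starts were read as 0-based. The genome was the GRCm38.p6 reference (mm10 coordinates) with GENCODE vM21 genes. Of 504 nuclear sites, 12 on unplaced scaffolds were left out of all comparisons of sequence. Python 3.11.15, NumPy 2.4.6, SciPy 1.17.1, pysam 0.24.0 and samtools 1.23.1 were used. Sites were aligned to each other with blastn 2.17.0 (words of 7 nt, E-value 0.001) and to the repeat unit with edlib. Copies were exact matches on both strands, counted with numba 0.67.0. Intervals are 95% Wilson intervals. The period search was tested on simulated arrays with 5% divergence, and the mapping to the unit on simulated sites with a higher divergence. The period was found in 19 of 20 arrays, and 800 of 800 sites were mapped in the right sense and within 3 nt. The simulated units were random bases, without the words that recur inside the real unit. Errors of position between such inner copies could therefore not show in this test.

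The members and the lists were chosen with earlier results of these data known. The named genes were the 3 gene models, with every member by position and, outside them, the sites that match a member. Sites outside them that lie nearest to a gene model, and genes enclosing or overlapping a site, were named after their values were seen. Sequences were shown for the widest sites by gene model and strand and for the pairs of highest identity. Alternatives changed the overlap, strand, extent, width, word length and identity limits.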

Additional observations from a re-analysis of the deposited data

How the results depend on the processing

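Over 10 results, 33 alternatives were computed; 23 left the value close to that reported (a count within 1.5 times, a share or median within its 95% interval, the period within 1 nt) and 10 moved it past that limit. The number of member sites fell from 32 to 13 on the strand of the gene models and to 11 in exons, and was 28 to 33 with other rules of overlap, extent or width. The soft-masked share of 98.5% became 100% when sites of at least 50%, or of at least 90%, masked bases were counted in place of bases. The period of 234 nt became 485 nt in Gm10800 alone and 351 nt in Gm21738 alone. Similar pairs fell from 443 to 235 when 90% of the shorter site had to align. The U share of 35.9% became 28.1% on the opposite strand. The copies of member words rose from 35 to 120 with words of 20 nt and to 245 with words of 14 nt. Of the alternatives, 4 were chosen after seeing the data: the U-rich strand share of 65.6% was 64.6% by bases, 64.3% for the wider sites, 58.3% without Gm26870 and 60% with the matching sites outside the gene models. No paired analysis was possible because 1 sample was analysed and no test between groups was made. The depth behind a site was unknown, the control sample was not analysed here, and most satellite copies in the cells lie outside the assembly, so the place of a site among like copies and a source in other arrays of the same repeat cannot be told apart.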
